A study of Homo sapiens with 16 samples.

Results

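The kinesin motor genes of human 293S cells were followed through sucrose gradients from cells exposed to sodium arsenite and from untreated cells. Members were all genes whose symbol in the deposited table begins with KIF and a number, which gave 36 genes of 13148. Of these, 7 form a mitotic group (KIF2C, KIF4A, KIF11, KIF14, KIF18A, KIF20A and KIF23) and 29 are the other kinesins.

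Kinesins are motor proteins that use ATP to walk along microtubules or to take microtubule ends apart. Some build and move the mitotic spindle and are needed mainly while cells divide. Others carry vesicles, organelles, protein complexes and mRNAs through the cytoplasm, and a few work in cilia or in Hedgehog signalling. Long motor and coiled-coil regions give most kinesins long coding sequences.

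The arsenite cells had received 1 mM sodium arsenite, which causes oxidative stress, for 30 minutes, and the control cells were untreated; both were 293S cells, a human embryonic kidney line. Each gradient separates mRNAs by how large their complexes are, ribosomes included, and total RNA of fractions 1 to 8 was sequenced. Every treatment and fraction had a single library, 16 in all, so no difference has a replicate check and none carries a p-value. The deposited values are shares: the 8 values of a gene in a gradient add up to 1, whatever its expression. Neither mRNA levels, nor the depth behind a share, nor markers of the cell line can be read from them, and the labels do not name the end at which fraction 1 was taken.

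Position is the mean of the fraction numbers 1 to 8 with an mRNA's shares as weights. On the deposited shares, all 36 kinesin mRNAs had a lower position with arsenite than in the control, as did 98.3% of all genes. That count depends on how the fractions were scaled, which no label states. Under the size factors described below, the median shift of all genes was −0.23 fractions, against −1.46 as deposited. Some kinesins, such as KIF1C and KIF3B, then lay higher with arsenite, and others, such as KIF20A, still lay lower. The median position of the kinesins was 3.68 with arsenite and 4.98 in the control, with ranges over genes of 2.12 to 4.35 and 3.87 to 5.92. For all genes the medians were 3.10 with arsenite and 4.54 in the control, so the typical kinesin lay at higher fraction numbers in both gradients. Fractions 5 to 8 held a median of 31.5% of a kinesin mRNA with arsenite and 58.8% in the control, against 16.4% and 53.9% over all genes. Because a library pools many cells, a change in every cell and a larger one in some cells, such as those in mitosis, cannot be told apart, nor can fewer cells of a type and less RNA per cell.

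**Figure D1:**
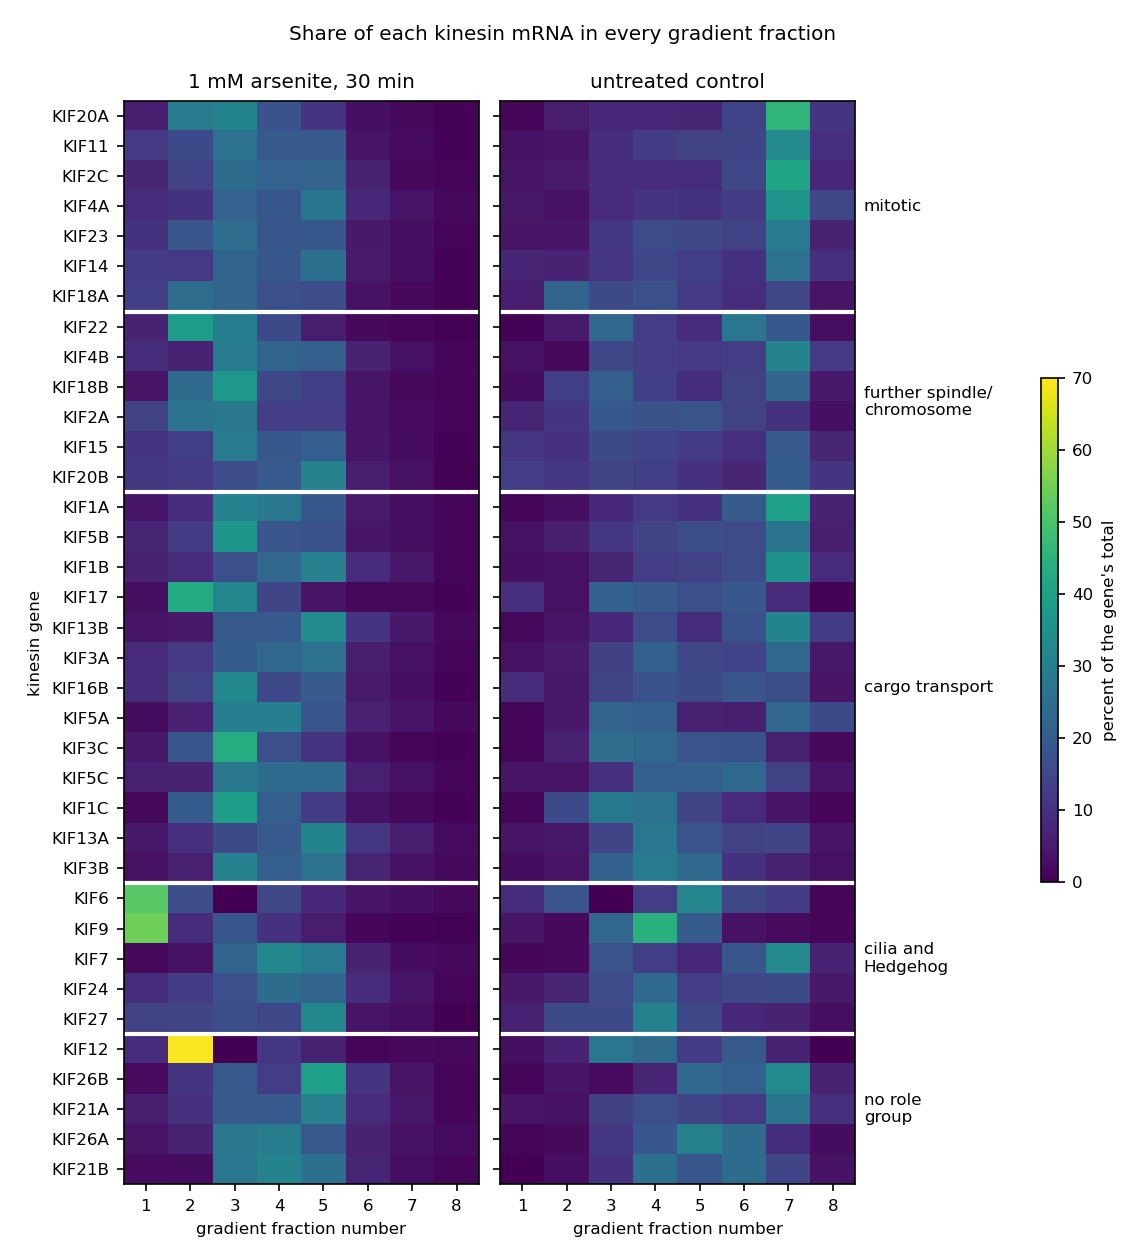
Share of each of the 36 kinesin mRNAs (rows) in gradient fractions 1 to 8 (columns), in percent of that mRNA's total in its gradient, with arsenite on the left and the untreated control on the right; each cell is 1 library. Shares are as deposited, and no label states how the fractions were scaled. Fraction 7 is the largest control fraction of 19 mRNAs, and with arsenite it holds between 0.763% and 5.61% of any of the 36.

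Values by fraction are the deposited shares here, and they change with the scaling of the fractions, as given below. The share in fraction 7 was lower with arsenite for 36 of 36 kinesins, beside 95.4% of all genes. Its median over the 7 mitotic kinesins was 2.09% with arsenite and 32.9% in the control; over the 29 others it was 2.87% and 16.7%, and over all genes 1.47% and 7.76%. In the control, fraction 7 was the largest fraction of 6 of 7 mitotic and 13 of 29 other kinesins, beside a background of 14.9% of all genes and 33.9% of the 3910 genes whose coding length lay between the shortest and longest kinesin (1956 and 6327 nt). Fraction 5 went the other way: its share was higher with arsenite for 7 of 7 mitotic and 20 of 29 other kinesins, against 28.2% of all genes and 54.7% of genes in that length range. With arsenite, fraction 5 was the largest fraction of 2 mitotic and 8 other kinesins, beside 8.43% of all genes and 15.6% of those in the length range.

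To compare genes despite the common movement, each gene's shift (its arsenite position minus its control position) was taken relative to the median shift of all genes, −1.46 fractions; the result is its relative shift. A gene is said to have moved lower or higher when its relative shift reached 0.5 fractions in either direction and its sign held on dropping any single fraction number from both gradients. No label states how the fractions were scaled against each other. Under median-of-ratios size factors, which put the typical gene at the same value in each library, the common shift was −0.23. Values with size factors are given where they change the call or the sign of a kinesin's relative shift. Unless stated, directions of positions and of single fractions are those of the deposited shares. With size factors, the kinesins' median log2 ratio (arsenite over control) went from 0.90 to −0.17 in fraction 1. It went from 1.11 to −0.48 in fraction 2 and from −1.15 to 0.79 in fraction 6. Over all kinesins its sign held in the remaining fractions. Over the 29 others it also changed sign in fraction 3, from 0.57 to −0.11, and in fraction 7, from −2.19 to 0.02.

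By that rule 4 kinesins moved lower (11.1%, against 24.0% of all genes) and 8 moved higher (22.2%, against 23.6%), and 24 did neither. Among genes in the kinesins' coding-length range, 15.5% moved lower and 31.2% higher. KIF20A, KIF22, KIF11 and KIF1A moved lower; KIF27, KIF3B, KIF13A, KIF1C, KIF24, KIF20B, KIF18A and KIF21B moved higher. Just inside the threshold lay KIF21B at 0.51, KIF1A at −0.51 and KIF18A at 0.52, and just outside it KIF26A at 0.45 and KIF2C at −0.47. With size factors, 7 kinesins moved lower and 7 higher, against 26.4% and 28.7% of all genes; KIF18A, KIF20B and KIF21B were then not called. When each gene was set against genes of similar control position and coding length (joint bins), 3 of the 12 calls were kept. Those were the calls of KIF20A, KIF3B and KIF21B. KIF9 (−1.33) and KIF17 (−0.60) were newly called lower there, and KIF5A (0.80) higher.

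The mitotic kinesins had the more negative relative shifts. Their median was −0.35 fractions, against 0.28 for the other kinesins, a difference of −0.63. Of the mitotic kinesins, 2 of 7 moved lower (28.6%) and 1 of 7 higher (14.3%); of the others, 2 of 29 moved lower (6.90%) and 7 of 29 higher (24.1%). Over all genes the shares were 24.0% lower and 23.6% higher, so the 2 of 7 and the 7 of 29 are near the background. Median positions were 3.48 with arsenite and 5.53 in the control for the mitotic kinesins, and 3.80 and 4.71 for the others. By these medians the mitotic mRNAs lay further along in the control but not with arsenite, where 0 of 7 and 3 of 29 had at least 50% of their total in fractions 5 to 8 (KIF26B at 55.2%, KIF13B at 51.3% and KIF13A at 50.3%; 2.34% of all genes). In the control, 6 of 7 and 17 of 29 had that much, against 58.6% of all genes. The difference was −0.92 with size factors, −0.31 when fraction 7 was left out, and −0.19 when each gene was set against genes of similar control position and coding length (where 3 kinesins moved lower and 3 higher, against 12.7% and 15.1% of all genes).

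**Figure D2:**
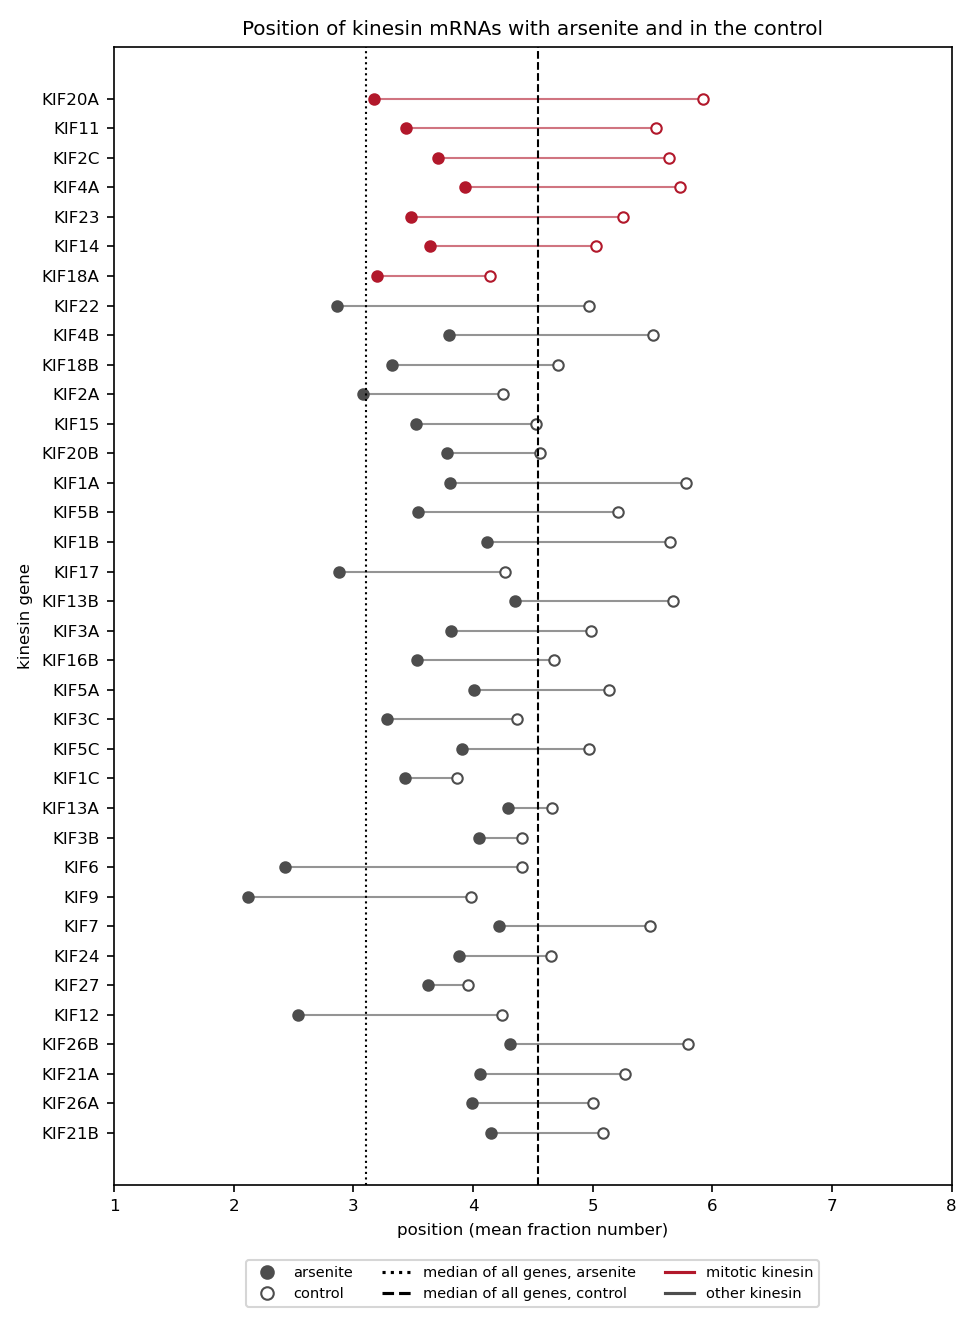
Position (mean fraction number) of each kinesin mRNA with arsenite (filled) and in the control (open), mitotic kinesins in red and the others in grey, with the medians of all genes at 3.10 (dotted, arsenite) and 4.54 (dashed, control). On the deposited shares shown, every filled point lies left of its open point. The longest line is that of KIF20A (3.17 and 5.92) and the shortest that of KIF27 (3.62 and 3.96).

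KIF20A, a motor of the central spindle that brings the chromosomal passenger complex there and is needed for cytokinesis, had the most negative relative shift of the 36. With arsenite its shares in fractions 1 to 8 were 5.80%, 29.2%, 31.5%, 17.5%, 10.8%, 2.90%, 1.56% and 0.741%. In the control they were 1.30%, 5.42%, 7.66%, 7.71%, 7.60%, 14.1%, 45.8% and 10.4%. The mRNA was thus concentrated in fractions 2 and 3 with arsenite and in fraction 7 in the control. Its position was 3.17 with arsenite and 5.92 in the control, the highest control position of any kinesin. Its relative shift of −1.30 stayed between −1.56 and −0.70 as single fractions were left out. In joint bins of control position and coding length it was −0.83 and still called, but KIF9 (−1.33) and KIF6 (−0.84) then lay lower.

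KIF11, the motor that slides antiparallel microtubules apart to set up a bipolar spindle, also moved lower. Its shares with arsenite were 11.7%, 15.6%, 26.5%, 19.7%, 19.9%, 3.78%, 2.09% and 0.687%. In the control they were 3.48%, 4.00%, 9.14%, 12.4%, 13.6%, 14.7%, 32.9% and 9.75%. On the deposited shares, fractions 1 to 5 were thus all higher with arsenite and fractions 6 to 8 all lower. Such directions depend on the scaling: the median log2 ratio of the mitotic kinesins in fraction 6 was −1.17, but 1.08 with size factors. Its position was 3.44 with arsenite and 5.53 in the control, a relative shift of −0.64, which was −0.24 without fraction 7.

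KIF2C, a kinesin that takes microtubule ends apart at centromeres, had a similar profile but did not move by the rule. With arsenite its shares were 7.52%, 13.5%, 24.7%, 22.1%, 22.4%, 6.97%, 1.90% and 0.855%. In the control they were 3.92%, 4.97%, 8.89%, 8.97%, 9.18%, 14.8%, 41.3% and 8.04%. After KIF20A, it had the largest control share in fraction 7 of any kinesin. Its relative shift was −0.47, and it moved lower with size factors (−0.80).

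KIF23 works in the same stage of division as KIF20A: it is the motor subunit of centralspindlin, which bundles midzone microtubules. Its position was 3.48 with arsenite and 5.25 in the control, a relative shift of −0.31, and it moved lower with size factors (−0.54). KIF14, a midzone motor of cytokinesis, lay at 3.64 and 5.03 with a relative shift of 0.07 (−0.29 with size factors). KIF18A, a kinesin-8 that damps chromosome movements at the metaphase plate, was the 1 mitotic kinesin that moved higher. Its shares were 13.0%, 25%, 22.5%, 17.0%, 16.6%, 3.53%, 1.69% and 0.739% with arsenite, and 5.51%, 22.2%, 15.4%, 17.1%, 11.9%, 9.19%, 15% and 3.76% in the control. Fraction 2 was its largest in both gradients, and its control position of 4.14 was the lowest of the mitotic group. Its relative shift was 0.52 (0.49 with size factors).

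KIF4A, a chromokinesin that also shapes the central spindle with PRC1, has a near copy, KIF4B. KIF4A lay at 3.93 with arsenite and 5.73 in the control, a relative shift of −0.35, and KIF4B at 3.80 and 5.50, a relative shift of −0.24; with size factors KIF4B moved lower (−0.73). The annotated coding sequences of 3699 and 3705 nt differ at 152 of 3699 aligned bases (95.9% identity), and the longest identical run is 151 bases. Reads shorter than such a run can match both genes, and no label states how they were placed, so the values of both are uncertain; without the pair the mitotic and other medians were −0.39 and 0.28. The 60-base coding stretch with the most differences (coding positions 167 to 226 of each, GENCODE 29, GRCh38, given 5′ to 3′ on the sense strand, KIF4A on chromosome X and KIF4B on chromosome 5, both on the plus strand) shows how alike they are; capitals mark the 7 bases that differ.
KIF4A: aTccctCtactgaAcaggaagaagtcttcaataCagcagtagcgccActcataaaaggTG
KIF4B: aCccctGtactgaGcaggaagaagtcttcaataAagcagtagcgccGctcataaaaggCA

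Of the further spindle and chromosome motors, 1 of 6 moved lower and 1 of 6 higher (16.7% each, against 24.0% and 23.6% of all genes). Their median relative shift was 0.18, and 0.14 with size factors, 0.28 in control-position bins and 0.04 in coding-length bins. In joint bins of control position and coding length it was −0.19. KIF22, a chromokinesin that pushes chromosome arms away from the poles, moved lower. Its shares were 7.04%, 38.6%, 29.7%, 15.8%, 5.53%, 1.77%, 1.03% and 0.493% with arsenite. In the control they were 0.808%, 5.07%, 23.1%, 12.6%, 8.92%, 27.5%, 19.3% and 2.67%. The control profile had peaks in fractions 3 and 6, and the arsenite profile a single one in fraction 2. KIF22 lay at 2.86 with arsenite and 4.97 in the control, a relative shift of −0.65.

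KIF20B, a paralog of KIF20A that also acts in cytokinesis, moved the opposite way, with a relative shift of 0.68. It lay at 3.78 with arsenite and 4.56 in the control, where its shares in fractions 1 and 7 were 12.6% and 20.5%. With size factors its relative shift was 0.29, and in joint bins of control position and coding length 0.04. It was not called in either. KIF15, a kinesin-12 that can take over spindle bipolarity when KIF11 is blocked, lay at 3.52 and 4.53 (0.44). KIF18B, which limits astral microtubule length, lay at 3.32 and 4.71 (0.07, and −0.02 with size factors). KIF2A, a depolymerase of spindle poles, lay at 3.08 and 4.25 (0.29, called higher with size factors at 0.64).

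Of the 13 cargo motors, 1 moved lower (7.69%, against 24.0% of all genes) and 3 higher (23.1%, near the 23.6% of all genes), with a median relative shift of 0.31. KIF1A, which carries synaptic vesicle precursors in neurons, moved lower at −0.51. It had 39.5% of its total in fraction 7 in the control and 2.59% with arsenite, and its positions were 3.81 with arsenite and 5.78 in the control. The value was −0.04 without fraction 7 and 0.33 when set against genes of similar control position. Its relative KIF1B, a motor for mitochondria and synaptic vesicle precursors, lay at 4.12 and 5.65 (−0.07), and KIF1C, which moves Golgi and integrin cargo, went the other way.

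KIF1C had shares of 1.40%, 20.5%, 39.0%, 21.0%, 12.3%, 3.36%, 1.63% and 0.785% with arsenite. In the control its shares were 0.942%, 15.7%, 28.2%, 26.4%, 14.7%, 8.55%, 4.16% and 1.28%. On the deposited shares, fraction 3 was the largest in both, and fractions 4 to 8 were all lower with arsenite. Its position of 3.43 with arsenite and 3.87 in the control, the lowest control position of the 36, gave a relative shift of 1.02; in joint bins of control position and coding length it was 0.04 and not called.

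KIF13A, a motor of recycling endosomes, moved higher with a relative shift of 1.08, which was 0.44 and not called in joint bins. Its shares were 4.92%, 9.40%, 15.7%, 19.7%, 31.7%, 11.1%, 5.61% and 1.93% with arsenite. In the control they were 3.99%, 4.57%, 14.7%, 27.5%, 17.8%, 13.5%, 14.4% and 3.56%. Fractions 5 to 8 together held 50.3% with arsenite and 49.2% in the control. KIF13A and KIF27 were the 2 kinesins of 36 for which that sum was higher with arsenite, against 4.28% of all genes. KIF13B, the close relative of KIF13A, lay at 4.35 with arsenite, the highest of the 36, and at 5.67 in the control (0.13, and −0.46 with size factors).

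The kinesin-2 motors, which drive transport into cilia, were not alike. KIF3B moved higher: its shares were 3.08%, 6.23%, 31.1%, 20.9%, 26.4%, 7.21%, 3.50% and 1.56% with arsenite. In the control they were 2.35%, 3.77%, 21.8%, 28.5%, 23.4%, 10.2%, 6.79% and 3.27%. KIF3B lay at 4.05 with arsenite and 4.41 in the control, a relative shift of 1.10. Its partner in the heterotrimer, KIF3A, lay at 3.82 and 4.99 (0.28), and KIFAP3, the accessory subunit of that complex, moved lower at 3.10 and 5.46 (−0.90). KIF3C, the alternative partner of KIF3A, lay at 3.28 and 4.37 (0.37), and KIF17, a homodimeric kinesin-2, at 2.88 and 4.27 (0.07, and 0.92 with size factors). In joint bins KIF17 was at −0.60 and called lower.

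None of the 3 heavy chains of conventional kinesin moved by the rule. The same held for 24 of all 36 kinesins and 6888 of 13148 genes. KIF5B, the chain found in most tissues, lay at 3.54 with arsenite and 5.21 in the control (−0.22). The neuronal chains lay at 4.01 and 5.14 for KIF5A (0.33, and −0.40 with size factors) and at 3.91 and 4.97 for KIF5C (0.39). In joint bins KIF5A was at 0.80 and called higher. KIF16B, a motor of early endosomes, lay at 3.53 and 4.68 (0.31).

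Of the 5 kinesins of cilia and Hedgehog signalling, 0 moved lower and 2 higher (against 24.0% and 23.6% of all genes). Their median relative shift was 0.19, and 0.44 with size factors, 0.70 in control-position bins, −0.13 in coding-length bins and −0.06 in joint bins. KIF27, a relative of the Hedgehog regulator KIF7 that acts in motile cilia in mouse, had the highest relative shift of the 36, at 1.12. In joint bins it was −0.06 and not called, and KIF5A (0.80) and KIF3B (0.77) were highest. Its shares were 13.9%, 14.5%, 16.8%, 15.2%, 32.7%, 3.90%, 2.66% and 0.270% with arsenite, and 6.20%, 15.5%, 15.5%, 30.7%, 15%, 7.66%, 6.90% and 2.52% in the control. The peak was fraction 5 with arsenite and fraction 4 in the control. KIF24, a centriolar kinesin that restrains cilium assembly, also moved higher, at 3.88 and 4.65 (0.68, but 0.04 and not called in joint bins). KIF7 itself lay at 4.22 and 5.48 (0.19, and −0.42 with size factors).

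KIF9 and KIF6, both of motile cilia and flagella in mouse, had the lowest arsenite positions. KIF9 had 54.6% of its total in fraction 1 with arsenite and 3.89% in the control, where fraction 4 was its peak at 44.5%. It lay at 2.12 with arsenite and 3.98 in the control, with a relative shift of −0.41, which was 0.66 without fraction 1. In joint bins KIF9 was at −1.33, the lowest of the 36, and was called lower. KIF6 had 51.8% in fraction 1 with arsenite and 9.05% in the control, but it is listed at 0 in fraction 3 of both gradients. Its relative shift of −0.52 was 0.53 without fraction 1 and 0.44 with size factors, so it is not called. KIF9 also shares 13.00% of its annotated exon bases with an antisense gene, KIF9-AS1; no label states whether counting used strand, so reads of the pair cannot be told apart. In all, 11 of 36 kinesins overlap a gene on the opposite strand, among them KIF22 (6.33% of exon bases), KIF23 (6.14%) and KIF20A (2.12%).

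Of the 5 kinesins without a role group, 0 moved lower and 1 higher (KIF21B), against 24.0% and 23.6% of all genes. The 1 of 5 is near that background. KIF21B, a motor of neurons and immune cells, lay at 4.15 with arsenite and 5.09 in the control (0.51, and 0.09 with size factors). KIF21A, which restrains microtubule growth at the cell cortex, lay at 4.06 and 5.27 (0.24, and −0.24 with size factors). The atypical kinesins KIF26A and KIF26B lay at 3.99 and 5.0 (0.45, called higher with size factors at 0.56) and at 4.31 and 5.80 (−0.04). KIF12 lay at 2.54 and 4.24 (−0.24, and 0.70 with size factors); it is listed at 0 in arsenite fraction 3 and control fraction 8, and 69.5% of its arsenite total lay in fraction 2 alone. Together with KIF6 it makes the 2 kinesins with any 0.

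**Figure D3:**
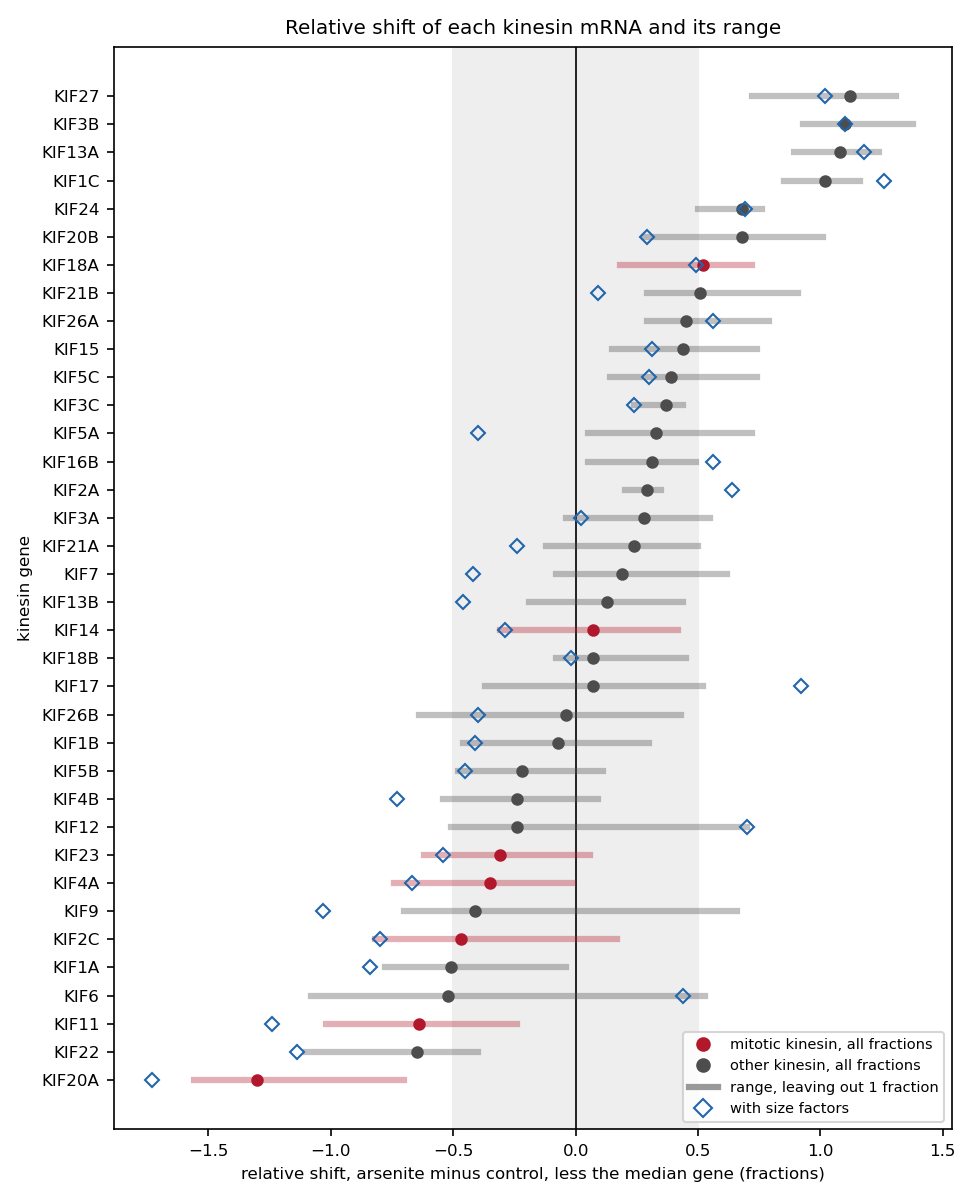
Relative shift of each kinesin mRNA in fractions (arsenite minus control, less the median gene; the grey band spans −0.5 to 0.5). Points use all fractions, bars run from the lowest to the highest value on dropping 1 fraction number, and open diamonds use size factors; points run from −1.30 (KIF20A) to 1.12 (KIF27), and the bars of KIF6, KIF9 and KIF12 cross 0 most widely.

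Relative shift went with where a kinesin mRNA lay in the control. Over the 36 kinesins, control position and relative shift had a Spearman correlation of −0.51 (−0.73 with size factors), and over 13148 genes −0.55 (−0.56). These describe genes that share libraries, and because control position enters the shift, part of a negative value arises by construction. When each gene was centred on genes of similar control position (20 bins), the median of the mitotic kinesins was 0.19 and that of the others 0.61, and 0 kinesins moved lower and 16 higher, against 20.4% and 17.8% of all genes. KIF20A then had a relative shift of −0.46 and KIF11 one of −0.02. The mitotic median stayed below that of the others, by 0.42 fractions, but neither median lay below 0.

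**Figure D4:**
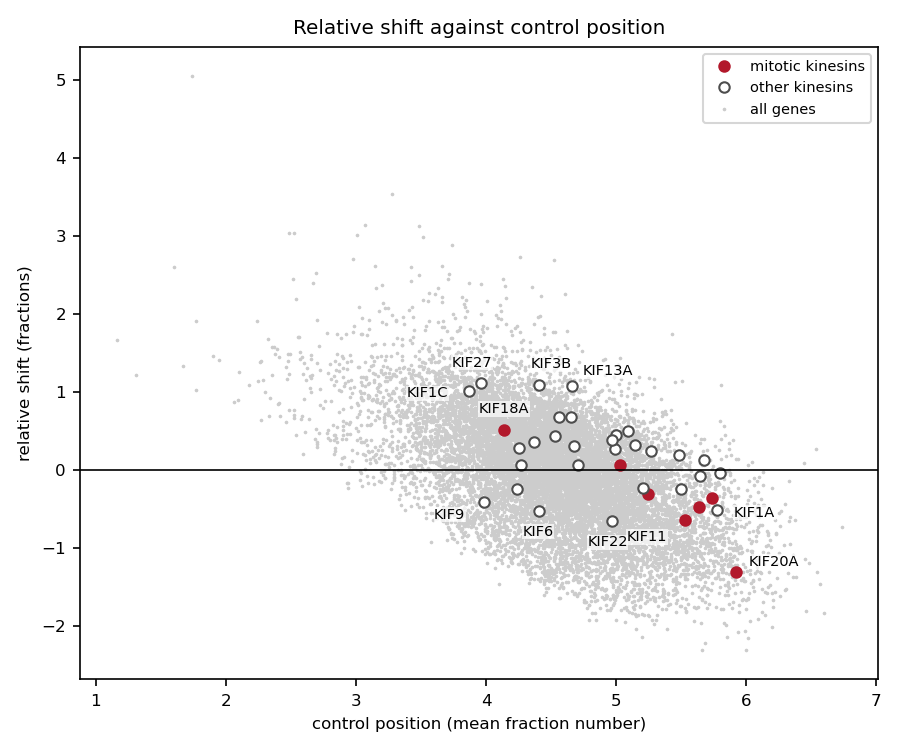
Relative shift in fractions against control position (mean fraction number), with 1 point per gene: mitotic kinesins in red, other kinesins as open circles, all genes in grey. Of the 7 mitotic kinesins, 6 lie to the right of position 5, and KIF20A lies furthest right and lowest of all kinesins (5.92 and −1.30).

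Coding length was related to position with arsenite in the kinesins much as in all genes. The Spearman correlation was 0.68 over 36 kinesins and 0.67 over 13060 genes with an annotated coding sequence; with control position it was 0.37 and 0.38. The kinesins had a median coding length of 3241.5 nt, against 1431 nt for all genes, and the mitotic kinesins (2883 nt) were shorter than the others (3705 nt). Genes in the kinesins' length range had median positions of 3.49 with arsenite and 4.80 in the control, and a median relative shift of 0.19, beside 0.16 for the kinesins. Centred on genes of similar coding length (10 bins), the median relative shift was −0.60 for the mitotic kinesins and −0.01 for the others. The highest arsenite positions belonged to long mRNAs such as KIF13B (5481 coding nt) and KIF26B (6327 nt). KIF3B reached 4.05 with a coding sequence of 2244 nt, and KIF22 (1998 nt) and KIF9 (2373 nt) lay at 2.86 and 2.12.

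**Figure D5:**
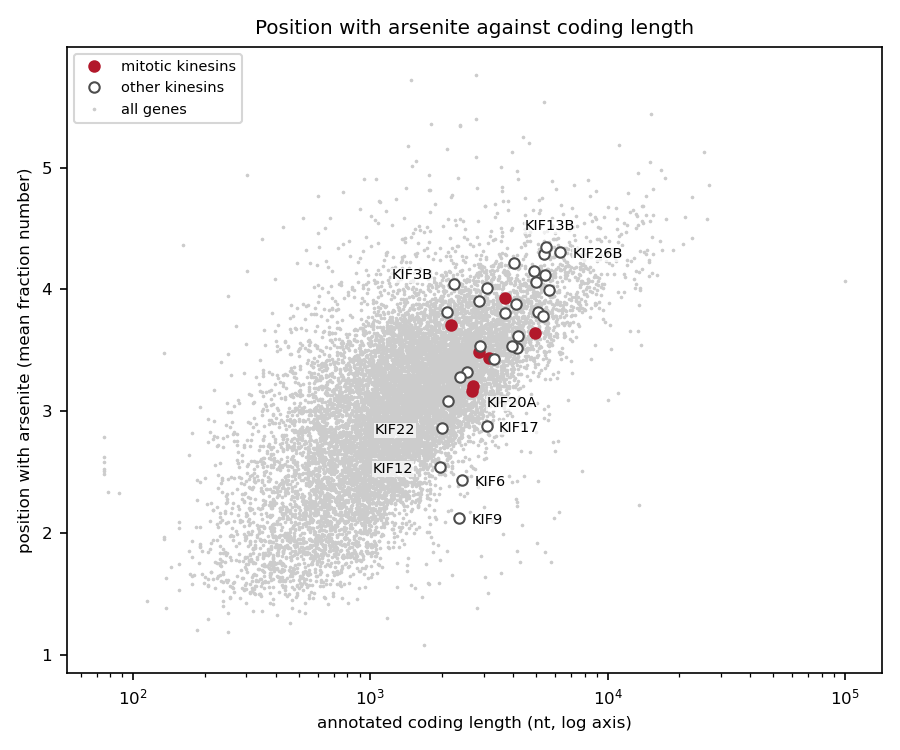
Position with arsenite (mean fraction number) against annotated coding length in nt on a log axis, with 1 point per gene: mitotic kinesins in red, other kinesins as open circles, all genes in grey. Longer coding sequences lie higher (Spearman correlation 0.68 over the kinesins and 0.67 over all genes), and KIF9, KIF6, KIF12, KIF22 and KIF17 are the lowest kinesins.

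Likeness of whole profiles was measured as the percentage of the mRNA that would have to be placed in another fraction to turn one profile into another, averaged over both gradients. The closest pair was KIF11 and KIF23, at 6.39%. KIF24 and KIF3A followed at 8.14%, and KIF21B and KIF5C at 8.39%. Among the mitotic kinesins, KIF2C was nearest to KIF11 (9.04%), and KIF20A to KIF2C (14.9%) and KIF11 (16.9%). Others had their nearest profile outside the mitotic group: KIF14 was nearest to KIF21A (9.08%) and KIF18A to KIF2A (12.6%). KIF4A and KIF4B differed by 10.8%, and each had another kinesin closer to it, KIF1B for KIF4A (9.17%) and KIF11 for KIF4B (9.80%). The farthest pair was KIF9 and KIF20A, at 58.2%. KIF6, KIF9 and KIF12 were at least 25.4% from every other kinesin.

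Genes that work with kinesins were described from lists chosen for their function, but with earlier results of these data known. Of 28 spindle, midzone and kinetochore partners, 15 moved lower and 1 higher, against 24.0% and 23.6% of all genes. With size factors 21 moved lower and 0 higher, against 26.4% and 28.7%. Their median relative shift was −0.60, and −0.86 with size factors, −0.14 in control-position bins, −0.62 in coding-length bins and −0.11 in joint bins. SPC25, of the NDC80 kinetochore complex, lay at 2.04 with arsenite and 5.08 in the control (−1.59), the mitotic kinase PLK1, which also controls KIF20A, at 2.59 and 5.31 (−1.26), and the passenger kinase AURKB at 2.29 and 4.83 (−1.09). ASPM, a spindle pole protein, was the 1 that moved higher, at 4.20 and 5.11 (0.55, and −0.21 with size factors). RACGAP1, chosen here after its values were seen because it forms centralspindlin with KIF23, moved lower at 3.17 and 5.29 (−0.67).

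Among 15 kinesin-family genes and partners with other names, 5 moved lower (33.3%) and 6 higher (40.0%), against 24.0% and 23.6% of all genes. Their median was 0.03, and −0.46 with size factors, 0.25 in control-position bins, −0.29 in coding-length bins and 0.09 in joint bins. KIFC1, a minus-end-directed spindle motor, moved lower at 3.01 and 5.40 (−0.93), as did KLC4, a kinesin light chain, at 3.0 and 5.33 (−0.87). STARD9, a centrosomal kinesin, moved higher at 4.54 and 4.57 (1.43), as did MAPK8IP3, which links kinesin-1 to cargo, at 3.90 and 3.97 (1.39), and KIFC3, a minus-end motor of adherens junctions, at 3.99 and 4.27 (1.17). CENPE, the kinetochore kinesin, named after its values were seen, lay at 3.88 and 5.31 (0.03, and −1.08 with size factors).

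Of 24 genes of cytoplasmic dynein and dynactin, the minus-end-directed motor and its activator, 10 moved lower (41.7%) and 2 higher (8.33%), against 24.0% and 23.6% of all genes. Their median was −0.45, and −0.64 with size factors, −0.24 in control-position bins, −0.28 in coding-length bins and −0.09 in joint bins. The dynactin subunits DCTN3, ACTR1A and ACTR10 moved lower (−1.28, −1.24 and −1.24), and the light chain DYNLL2 and the adaptor BICD1 moved higher (0.60 and 0.50). These mRNAs are shorter, with a median coding length of 1176 nt. Of 16 microtubule-associated proteins of interphase, 5 moved lower (31.2%) and 3 higher (18.8%), against 24.0% and 23.6% of all genes. Their median of −0.15 was −0.40 with size factors, 0.12 in control-position bins, −0.31 in coding-length bins and 0.11 in joint bins. The tubulin-binding STMN1 and the end-binding MAPRE3 had relative shifts of −1.74 and −0.91 and MAP1S one of −0.84, whereas the cytoskeletal linkers MACF1 and DST and the plus-end protein CLIP1 had 1.60, 1.31 and 1.17.

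The bases around the start codon, where initiating ribosomes choose the reading frame, were read for the mitotic kinesins and for the 4 kinesins with relative shifts above 1. The windows run from 12 bases before the A of the start codon to 7 bases into the coding sequence, 5′ to 3′ on the sense strand, in GENCODE 29 (GRCh38); the capitals mark the base 3 before the start codon, the ATG and the base after it.
KIF20A: gcccctgccGtcATGTcgc
KIF11: gcggggaccGtcATGGcgt
KIF2C: ctgactctcCgaATGGcca
KIF4A: tgagataggAtcATGAagg
KIF23: gagcctgctGccATGAagt
KIF14: ctgtctgccAaaATGTcat
KIF18A: agataatcaAcaATGTctg
KIF27: atctaagttGccATGGaag
KIF3B: tcagagttcAtcATGTcaa
KIF13A: agcgcagccAacATGTcgg
KIF1C: gtgtctggaGctATGGctg

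The start context ANNATGG or GNNATGG, read on the sense strand at the annotated start codon only, was present in 1 of 7 mitotic kinesins (KIF11) and 21 of 28 others, beside 45.3% of 12771 genes. KIF26A has no annotated 5′ UTR and was not counted. Of the 4 high-shift kinesins shown, KIF27 and KIF1C had this context and KIF3B and KIF13A did not; among those that moved lower, KIF11, KIF22 and KIF1A had it and KIF20A did not. An ATG stood in the annotated 5′ UTR of 21 of 35 kinesins (3 of 7 mitotic), against 54.8% of genes with an annotated 5′ UTR. A match describes these letters in 1 annotated transcript per gene.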

How the data were processed

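RNA of 293S gradient fractions was extracted with Trizol and made into NSR libraries, per the labels' protocols. The authors deposited 1 table of 13148 genes in the unit fraction: the share of a gene's total in each of 8 fractions of 2 gradients. The authors also deposited 3 score columns (position in each gradient and their difference), which were recomputed from the shares and differed by at most 8.9e-15. Per the submitters' processing notes, reads were placed on hg19. For aligner, counting, strand, gene filter and scaling of fractions, nothing is given in the sources used here. Depth is unknown, so no interval or floor is given. A share of 0 is reported as listed at 0.

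Groups came from the sample titles. Position, relative shift and the rule for genes said to have moved are as defined in the report. The code was also run on simulated profiles of equal width, with set read numbers and no scaling differences between fractions. Depth and scaling are unknown here, so that run does not show how well the rule works on these data. Alternatives were median-of-ratios size factors, a pseudocount of 1 percentage point on shares, leaving out single fractions, limits of 0.25 and 1 for a call, the position where 50% is reached, the share in fractions 5 to 8, genes with no 0 (11625), 20 bins of control position, 10 bins of coding length, and a wider mitotic list with KIF15, KIF18B, KIF20B and KIF22. Joint bins (5 of control position, 10 of coding length) and leaving out KIF4A and KIF4B were added after the data were seen.

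Coding lengths and sequences came from 1 protein-coding transcript per gene in GENCODE 29 (the principal isoform, or the longest coding sequence where the principal one had under 50% of its length), matched by symbol for 13060 genes (99.3%), of which 743 by an older symbol, and for all 36 kinesins. Its build is GRCh38, so no genome coordinates are given. The members, role groups and lists were chosen with earlier results of these data known. Named genes were all members and, per list and direction, up to 3 moved genes with the greatest relative shift. Python 3.11.15, numpy 2.4.6, pandas 2.3.3, scipy 1.17.1, Biopython 1.88 and matplotlib 3.10.9 were used.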

Additional observations from a re-analysis of the deposited data

How the results depend on the processing

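No paired analysis was possible because each treatment and fraction has 1 library. The median relative shift of all kinesins (0.16) was 0.00 with size factors, 0.33 for the 50% point, 0.25 over genes with no 0, 0.39 in control-position bins, −0.10 in coding-length bins and 0.01 in joint bins, and −0.07 to 0.33 as fractions were left out. That of the mitotic kinesins (−0.35) was −0.67, −0.71 for the 50% point, 0.19, −0.60 and −0.17 in the same bins, and −0.74 (without fraction 5) to 0.06 (without fraction 7). That of the others (0.28) was 0.45 for the 50% point, 0.61, −0.01 and 0.03 in the bins, and 0.10 to 0.37. Their difference (−0.63) was −1.16 for the 50% point, −0.19 in joint bins, and −0.83 to −0.31 (without fraction 7); it was negative in every alternative run.

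Kinesins that moved lower (4) numbered 7 with size factors, 1 at threshold 1, 0 in control-position bins, 8 in coding-length bins, and 1 to 8 as fractions were left out. Those that moved higher (8) numbered 15 and 4 at thresholds 0.25 and 1, 16, 4 and 3 in the bins, and 4 to 12. Mitotic kinesins that moved lower (2) numbered 4 with size factors, 1 at threshold 1, 0, 5 and 1 in the bins, and 1 to 5. Others that moved lower (2) numbered 1 with the pseudocount, the 50% point, genes with no 0 and the wider mitotic list, 0 at threshold 1 and in control-position bins, and 0 to 3. Over all genes, 26.4% moved lower and 28.7% higher with size factors, 20.4% and 17.8% in control-position bins, and 12.7% and 15.1% in joint bins. For thresholds 0.25 and 1, coding-length bins and left-out fractions, no such share was counted. Nor was one for the pseudocount, the 50% point or genes with no 0, so those counts have no background. The common shift (−1.46) was −0.23 with size factors and −1.70 to −1.21 as fractions were left out.

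All 12 called kinesins kept their sign under every alternative except KIF1A in control-position bins (0.33) and, in joint bins, KIF18A (−0.14) and KIF27 (−0.06); joint bins kept 3 of the 12 calls, those of KIF20A, KIF3B and KIF21B. The causes were not tested. The share in fractions 5 to 8 has no threshold and gave no counts. Unknown depth limits every share.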
